A study of Mus musculus with 5 samples.

Results

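The genes described here are 31 genes of fatty acid oxidation and ketone body metabolism, out of 32793 gene rows measured in mouse colon spheroids. They were named as a list by their role, with earlier results of these data known, so counts over them are a description and not independent evidence. Each of the 31 symbols was found in the table. The list covers 3 transcriptional regulators, 4 acyl-CoA synthetases, 3 carnitine acyltransferases, 4 acyl-CoA dehydrogenases, 5 enzymes of the hydratase, dehydrogenase and thiolase steps, 3 auxiliary enzymes for unsaturated fatty acids, 3 electron transfer proteins, 3 peroxisomal enzymes, 2 ketone body enzymes and the pyruvate dehydrogenase kinase Pdk4.

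RNA was sequenced in bulk from colon spheroids, which are round bodies of cells grown in culture from the gut lining. Spheroids with the dimerization-deficient alleles Notch1DD and Notch2DD (NDD, 2 libraries, titled RA) were compared with wild-type spheroids (WT, 3 libraries). Both groups had a mixed strain background, mostly C57Bl6 with a part of FVB. No drug, age, passage or culture medium is given in the labels, and they do not say whether the libraries of a group came from separate animals, so the p-values measure the spread between these libraries, which may be technical. The Notch receptor is cut upon ligand binding, and its intracellular part binds DNA with the factor RBPJ. At paired sites it can bind as a dimer, a contact that the DD alleles disrupt.

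Fatty acids are first joined to coenzyme A by acyl-CoA synthetases and carried into mitochondria as carnitine esters. There, repeated rounds of dehydrogenation, hydration, a second dehydrogenation and thiolysis release acetyl-CoA, and the electron transfer flavoprotein hands electrons to the respiratory chain. Peroxisomes shorten very long chains by a parallel route. Colonocytes are known for using butyrate, a short-chain fatty acid made by gut bacteria, as a main fuel, and for making ketone bodies from it. PPAR-alpha and its coactivator PGC-1-alpha are known activators of these genes.

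Total counts were 22372029 and 22122748 in NDD and 19192389 to 23064000 in WT. The 10 epithelial markers were present in all 5 libraries, with summed abundances of 13770 and 14250 CPM (counts per 1000000 counts, on scaled library sizes) in NDD and 12730 to 13880 CPM in WT. Of 10 fibroblast, 10 immune, 6 endothelial, 6 adipocyte and 6 muscle markers, 5, 4, 2, 2 and 3 had more than 3 counts in any library. The fibroblast sum was 9.18 and 26.5 CPM in NDD and 4.203 to 7.403 CPM in WT, most of it Pdgfrb, and the immune sum 55.4 and 74.3 CPM against 70.9 to 169 CPM, most of it Cd14. The endothelial sum, most of it Vwf, was 1.84 and 7.54 CPM in NDD and 2.23 to 2.81 CPM in WT. The adipocyte sum, most of it Cidec, was 1.79 and 3.65 CPM in NDD and 0.901 to 2.07 CPM in WT. These 3 sums (fibroblast, endothelial and adipocyte) were highest in NDD replicate 2, and their part in the results was not tested. The defining genes Lum, Thy1, Kdr, Cldn5 and Adipoq had a count of 0 in all 5 libraries. Spearman correlations over the tested genes were 0.984 to 0.987 between WT libraries and 0.966 between the NDD libraries, so NDD replicates 1 and 2 were less alike than any pair of WT libraries. NDD replicate 1 correlated with WT replicate 1 at 0.985. In bulk RNA, fewer cells of a type and less RNA per cell cannot be told apart.

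Promoters of 26 of the 31 genes were found in RefSeq's annotation of GRCm38.p6, as 30 windows of 300 bases (250 before and 50 after a start site). Crat, Acaa2, Decr1, Hsd17b4 and Acat1 had none in that set. Windows were searched on both strands for 6 motifs. The direct repeat bound by PPAR with RXR is a pair of AGGTCA with 1 base between, and a looser form, which includes it, is a pair of AGGNCA spaced alike. The single site of the ERR receptors, which are partners of PGC-1-alpha, is AAGGTCA. Its extended form, which contains it, is TCAAGGTCA. The HNF4 motif is CAAAGTCCA. The core bound by RBPJ, the DNA partner of Notch, is TGGGAA. Matches to the single ERR site can overlap the extended form and the direct repeat. The direct repeat was found in 0 of the 30 windows and in 0.0396% of all 32851 windows, and its looser form in 0 and 0.381%. The ERR site was in 1 window (3.33%, against 4.72% of all windows), that of Acadm. The extended ERR site and the HNF4 motif were in 0 windows, against 0.423% and 0.475% of all windows. The RBPJ core was in 7 windows (23.3%, against 25.6% of all windows): those of Acaa1a, Acadvl, Acsl1, Acsm3, Bdh1, Pdk4 and Pparg. A match is a run of letters and not a measured binding site.

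Of the genes with the RBPJ core, Acsm3, Acadvl, Pparg, Bdh1 and Pdk4 have values described in full. Acsm3 and Acadvl had an unadjusted p under 0.05 with edgeR, Pparg and Bdh1 did not, and Pdk4 was not tested. Shown are 3 upstream windows, the one with an ERR site and those of the acyl-CoA enzymes Acsm3 and Acadvl. Each is the stretch of 250 bases before the start site, 5′ to 3′ on the gene's strand, with the matches in capitals (TGACCTT is AAGGTCA read on the other strand, and TTCCCA is TGGGAA read on the other strand). They lie at chr3:153944644-153944893 on the minus strand (Acadm), chr7:119760673-119760922 on the plus strand (Acsm3) and chr11:70015429-70015678 on the minus strand (Acadvl).
Acadm: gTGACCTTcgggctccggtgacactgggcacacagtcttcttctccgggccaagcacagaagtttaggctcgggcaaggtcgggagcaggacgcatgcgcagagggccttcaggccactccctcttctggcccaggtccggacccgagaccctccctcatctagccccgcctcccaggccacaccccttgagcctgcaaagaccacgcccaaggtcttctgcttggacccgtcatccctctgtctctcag
Acsm3: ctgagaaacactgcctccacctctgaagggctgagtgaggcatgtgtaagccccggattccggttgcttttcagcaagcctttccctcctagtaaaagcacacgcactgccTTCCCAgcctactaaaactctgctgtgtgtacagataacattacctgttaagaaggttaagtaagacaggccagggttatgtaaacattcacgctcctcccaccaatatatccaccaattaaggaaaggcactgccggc
Acadvl: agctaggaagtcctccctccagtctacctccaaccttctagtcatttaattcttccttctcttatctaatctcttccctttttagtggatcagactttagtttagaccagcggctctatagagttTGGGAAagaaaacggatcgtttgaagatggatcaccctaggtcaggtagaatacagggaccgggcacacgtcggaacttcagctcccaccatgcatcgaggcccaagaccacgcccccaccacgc

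In wild-type spheroids the most abundant members were enzymes and electron carriers of the mitochondrial route, with Pparg at rank 10, and the regulators Ppargc1a and Ppara were scarce. On the TPM scale, which is corrected for transcript length and so allows genes to be compared, Hadh, the medium- and short-chain 3-hydroxyacyl-CoA dehydrogenase, had the highest mean level in WT at 184 ± 38.6 TPM (SD, n = 3). Etfb, the beta subunit of the electron transfer flavoprotein, followed at 133 ± 8.71 TPM. Each gene's WT range overlapped that of the next gene in order down to rank 21, so neighbours in that part of the order did not differ beyond their spread. Below it, neighbours were apart for Hsd17b4 and Etfdh, Eci2 and Decr1, Ehhadh and Ppargc1a, Ppargc1a and Ppara, and Ppara and Pdk4. The lowest levels were those of Ppargc1a at 5.20 ± 1.43 TPM, Ppara at 0.727 ± 0.261 TPM and Pdk4 at 0.0567 ± 0.0635 TPM. Pdk4, which slows glucose oxidation when fatty acids are burned, had 1 to 5 counts in each library and did not pass the filter on low counts. It was at 0.0874 and 0.141 CPM in NDD and 0.259, 0.044 and 0.0429 CPM in WT, with overlapping groups. A count of 0 would allow up to 0.130 to 0.156 CPM here (counting error only), so small differences in Pdk4 could not be seen at this depth.

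The list as a whole lay higher in NDD than in WT on both scales, by a small amount, and no member passed the test over all genes. Of the 31 genes, 30 passed the filter and were tested. The median log2 ratio of NDD to WT (edgeR's fold change) over the tested members was 0.27, against -0.0047 for all 13501 tested genes. Values were above 0 for 28 of the 30, against 49.5% of all tested genes. With edgeR's quasi-likelihood test, 0 members had an adjusted p under 0.05 (0.0889% of all genes tested), and the lowest value was 0.0771, in Crat. An unadjusted p under 0.05 was found for 8 members, all with higher values in NDD (6.49% of all genes tested), and for 0 members with lower values (4.68%). DESeq2 called 4 members (2.64% of all genes tested), which were Acaa2, Acsm3, Crat and Ppargc1a, and limma-voom called 0 (0.178%). The edgeR fits called 0 members with RLE factors (0.0889%) or at least 10 counts in every library (0.0325%), and 1, Crat, with no filter (0.302%). Limma on log2(TPM + 1) called 0 (0.130%, or 0.0780% unfiltered), as did log2(TPM + 0.1) (0.121%).

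The counts moved with single libraries. Without NDD replicate 1, 3 members were called (8.62% of all genes) and 11 had an unadjusted p under 0.05 with higher values in NDD (13.1%). Without NDD replicate 2, 0 were called (0.0866%) and 5 were past the unadjusted threshold (3.72%). Leaving out WT replicates 1, 2 and 3 gave 0 calls each (0%, 0.0374% and 0.0225%), with 8 (5.46%), 6 (4.76%) and 4 (3.08%) members past it. Of the 8 members, Acaa2, Acsm3 and Crat stayed past it in each of these 5 fits, and the other 5 did not in at least 1.

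Summed over the 31 genes, the level was 2523 and 2669 TPM in NDD replicates 1 and 2 and 2234, 2143 and 1929 TPM in WT replicates 1, 2 and 3. The groups did not overlap, and the mean of NDD (2596 ± 103 TPM, SD, n = 2) was 1.235 times that of WT (2102 ± 157 TPM, SD, n = 3). The 5 enzymes of the hydratase, dehydrogenase and thiolase steps had the largest sum, at 715 and 827 TPM in NDD and 497 to 614 TPM in WT. Sums of the carnitine acyltransferases (199.5 and 213 TPM in NDD, 139 to 171 TPM in WT), the acyl-CoA dehydrogenases, the acyl-CoA synthetases, the electron transfer proteins and the peroxisomal enzymes (114 and 122 TPM in NDD, 106 to 112 TPM in WT) also did not overlap between the groups. The synthetase sum rested on Acsm3, since the other 3 summed to 173 and 178 TPM in NDD and 184 to 197 TPM in WT, the reverse order. Sums of the regulators, the unsaturated fatty acid enzymes and the ketone body enzymes overlapped.

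**Figure D1:**
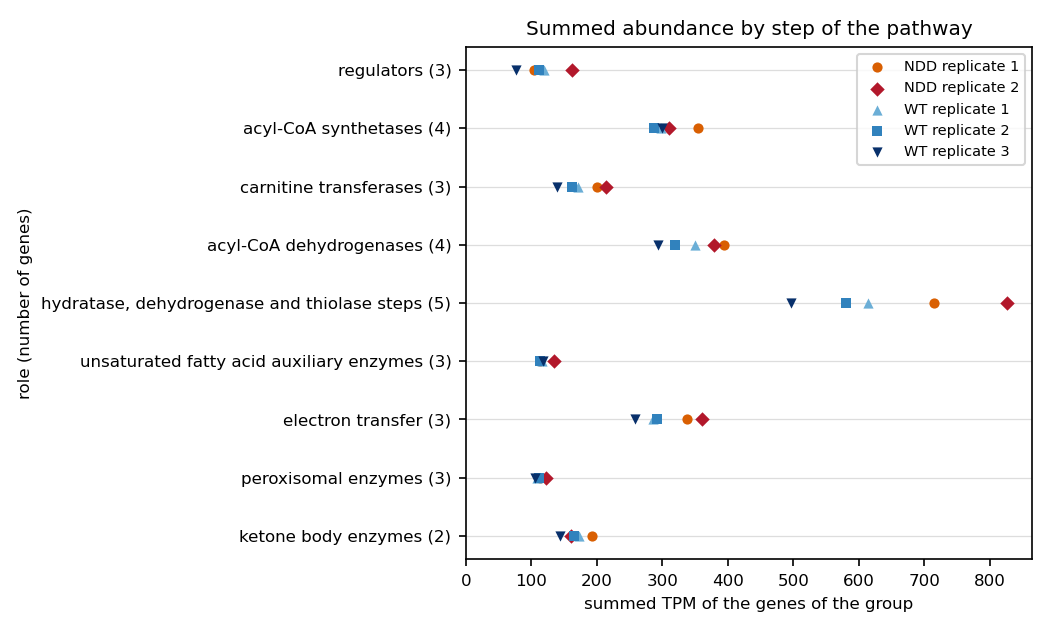
Summed TPM (horizontal axis, from 0) of the genes of each role in each of the 5 libraries (orange and red, NDD; blue, WT); the number of genes per role is in parentheses. The 5 enzymes of the hydratase, dehydrogenase and thiolase steps reach 715 and 827 TPM in NDD, above the highest WT library at 614 TPM, while the ketone body enzymes overlap.

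The differences were spread unevenly over the libraries. By CPM, every NDD value lay above every WT value in 18 of the 30 tested members (15.8% of all genes tested) and below in 1 member, Acsl5 (16.2% of all genes tested). NDD replicate 2 lay above every WT library in 27 members (38.1% of all genes tested) and NDD replicate 1 in 20 (26.1%). NDD replicate 2 exceeded NDD replicate 1 in 22 of the 30 members (50.0% of all genes tested) and was the highest of the 5 libraries in 21 (33.9%). WT replicate 3 was the lowest of the 5 libraries in 23 members (26.0% of all genes tested). The median log2 ratio of the members to the mean of WT was 0.18 in NDD replicate 1, 0.36 in NDD replicate 2, 0.098 in WT replicate 1, 0.061 in WT replicate 2 and -0.17 in WT replicate 3. For all tested genes these medians lay between -0.015 and -0.0040.

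**Figure D2:**
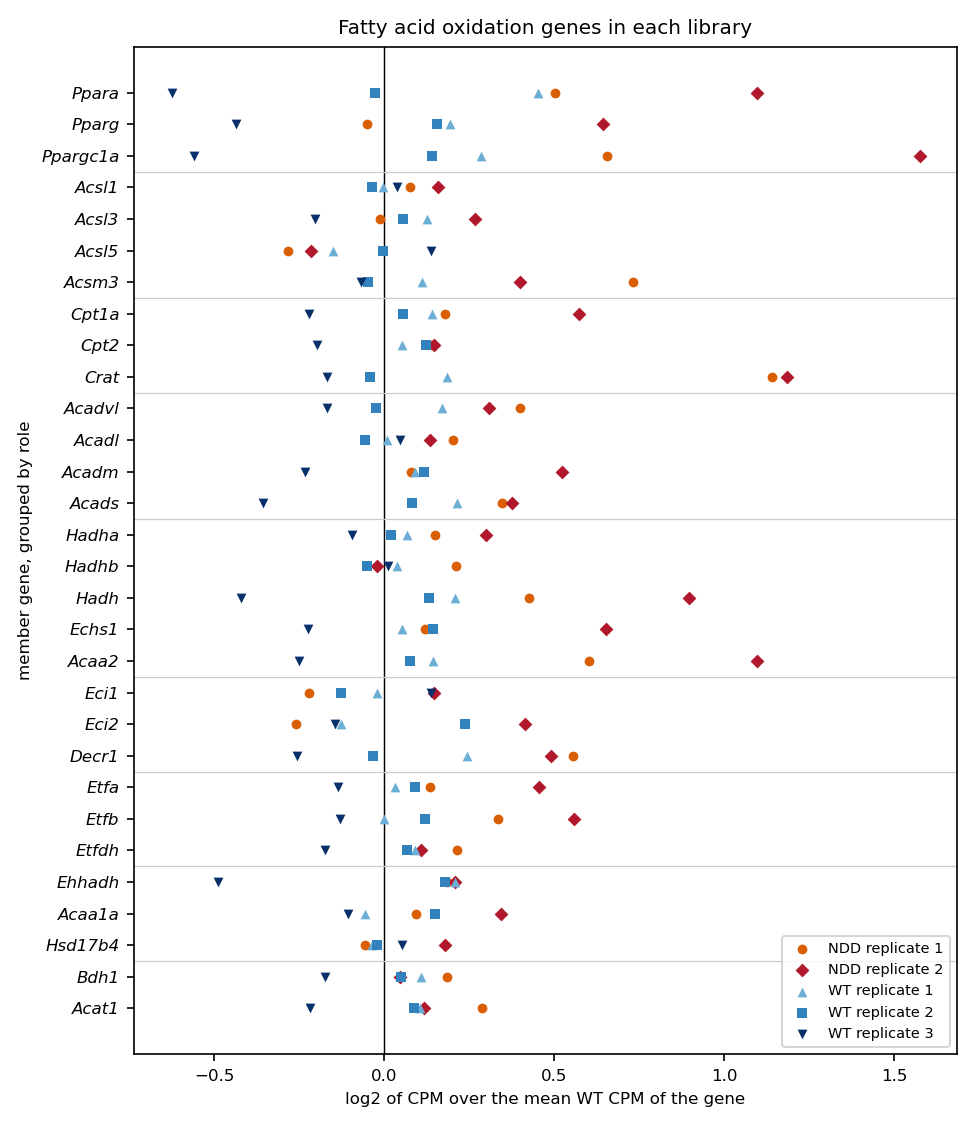
Log2 of the CPM of each tested member over its mean in WT (horizontal axis), with 1 symbol per library and genes grouped by role (vertical axis). NDD replicate 2 (red diamonds) lies above every WT library in 27 of 30 members and WT replicate 3 (dark blue triangles) is lowest in 23, while the NDD symbols of Crat nearly coincide.

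Markers of differentiated colonocytes and of proliferating cells also differed between these libraries. The summed abundance of 10 colonocyte markers was 5384 and 5359 CPM in NDD replicates 1 and 2 and 4168, 4102 and 3518 CPM in WT replicates 1, 2 and 3, with 8 of the 10 genes above every WT library in both NDD libraries (15.8% of all genes tested). Most of that sum was Car1 and Car2, whose groups overlapped. The other 8 markers summed to 1138 and 1517 CPM in NDD and to 643.5, 428 and 173 CPM in WT, with NDD replicate 2 highest and WT replicate 3 lowest, as in most members. That of 10 proliferation genes was 2147 and 947.5 CPM in NDD and 2129 to 2430 CPM in WT, so NDD replicate 2 stood apart and NDD replicate 1 lay within the WT range. The part of these shifts in the fatty acid oxidation genes was not tested.

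Among the regulators, Ppargc1a, which encodes the coactivator PGC-1-alpha and drives mitochondrial gene programmes, had the largest edgeR log2 ratio of all tested members. Its lead over Crat (1.16) was small. The order turned around with limma-voom (1.17 against 1.18 for Crat) and with the replicate block (0.91 against 1.09). The abundance of Ppargc1a was 31.9 and 60.3 CPM in NDD replicates 1 and 2 and 24.6, 22.3 and 13.7 CPM in WT replicates 1, 2 and 3. The groups did not overlap, but NDD replicate 1 lay nearer to WT replicate 1 than to the other NDD library. The log2 ratio was 1.19 ± 0.35 (SE, unadjusted p 0.0134 and adjusted p 0.390 with edgeR). It was 0.67 without NDD replicate 2, when the unadjusted p was no longer under 0.05, and 1.57 without NDD replicate 1.

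Ppara, the receptor PPAR-alpha that senses fatty acids, was low, at 4.50 and 6.79 CPM in NDD and 4.35, 3.12 and 2.06 CPM in WT. Its highest WT library lay just below its lowest NDD library, and the log2 ratio was 0.83 ± 0.40 (SE, adjusted p 0.468 with edgeR). It was 0.52 without NDD replicate 2 and 1.12 without WT replicate 1. Pparg, the receptor PPAR-gamma that is abundant in colon epithelium, was at 96.5 and 156 CPM in NDD and 114.5, 111.5 and 73.9 CPM in WT, with overlapping groups. Its log2 ratio was 0.34 ± 0.27 (SE, adjusted p 0.580 with edgeR), and it turned to -0.036 without NDD replicate 2. On the TPM scale the mean level of Pparg in WT (96.3 ± 21.3 TPM, SD, n = 3) was far above that of Ppara.

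Of the 4 acyl-CoA synthetases, which activate fatty acids, 1 had an unadjusted p under 0.05 with higher values in NDD (6.49% of all genes tested). That was Acsm3, a mitochondrial medium-chain synthetase that can take short acids such as butyrate. It was at 258 and 205 CPM in NDD and 168, 150.1 and 148 CPM in WT, with no overlap, and it was higher in NDD replicate 1 than in replicate 2. Its log2 ratio was 0.58 ± 0.15 (SE, unadjusted p 0.00693 and adjusted p 0.318 with edgeR). Acsl5, a long-chain synthetase of mitochondria and endoplasmic reticulum, was at 171 and 179.5 CPM in NDD and at 188, 208 and 229 CPM in WT, the reverse order of the groups. Its log2 ratio was -0.25 ± 0.13 (SE, adjusted p 0.481 with edgeR). Acsl1 and Acsl3, which activate long-chain fatty acids for oxidation and lipid droplets, had log2 ratios of 0.12 and 0.13.

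The carnitine enzymes included the member with the smallest p. Crat encodes carnitine O-acetyltransferase, which moves acetyl groups between coenzyme A and carnitine, and lies at chr2:30400471-30415813 on the minus strand (GENCODE M21, GRCm38). It was at 99.2 and 102 CPM in NDD replicates 1 and 2 and at 51.15, 43.7 and 40.02 CPM in WT replicates 1, 2 and 3. The NDD libraries were close to each other and lay well above WT. The fold was 2.24 (log2 ratio 1.16 ± 0.14 SE, unadjusted p 0.00016 and adjusted p 0.0771 with edgeR). Leaving out any 1 library moved the log2 ratio between 1.09 and 1.27. It was called by DESeq2 (adjusted p 2.96e-08), by edgeR with no filter on low counts (adjusted p 0.0232) and without NDD replicate 1 (adjusted p 0.0194), and not under the other alternatives.

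Cpt1a encodes the carnitine palmitoyltransferase of the outer mitochondrial membrane, the step that commits long-chain fatty acids to oxidation. It was at 228 and 299 CPM in NDD and 222, 209 and 172 CPM in WT. The groups did not overlap, but NDD replicate 1 lay close to WT replicate 1. The log2 ratio was 0.39 ± 0.18 (SE, adjusted p 0.461 with edgeR) and 0.19 without NDD replicate 2. Cpt2, the inner membrane partner, was at 90.3 and 90.7 CPM in NDD and 71.4 to 89.2 CPM in WT, with a log2 ratio of 0.15 ± 0.14 (SE). On the TPM scale the groups of Cpt2 overlapped (69.2 and 64.5 TPM in NDD, 54.6 to 65.5 TPM in WT).

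The 4 acyl-CoA dehydrogenases take the first step of each round for very long, long, medium and short chains. Their log2 ratios ran from 0.17 (Acadl) to 0.36 (Acads). In 3 of the 4, every NDD value by CPM was above every WT value (15.8% of all genes tested). On the TPM scale the groups of Acadl overlapped (122.9 and 108.8 TPM in NDD, 98.35 to 110.1 TPM in WT). Acadvl, the enzyme for very long chains, was at 99.2 and 93.2 CPM in NDD and 84.7, 74.05 and 66.9 CPM in WT. Its log2 ratio was 0.36 ± 0.14 (SE, unadjusted p 0.0445 and adjusted p 0.4395 with edgeR), the weakest of the 8 members with an unadjusted p under 0.05. Acadm, the medium-chain enzyme whose promoter carries the ERR site shown above, was at 70.1 and 95.4 CPM in NDD and 70.6, 71.9 and 56.4 CPM in WT. NDD replicate 1 lay inside the WT range by CPM, and the log2 ratio of 0.32 ± 0.19 (SE, adjusted p 0.494 with edgeR) was 0.094 without NDD replicate 2. On the TPM scale the groups of Acadm did not overlap, by a small margin (62.0 and 78.4 TPM in NDD, 49.9 to 61.5 TPM in WT).

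The middle and last steps of the mitochondrial round gave 2 of the 8. Acaa2, the mitochondrial 3-ketoacyl-CoA thiolase that splits off acetyl-CoA, was at 82.8 and 117 CPM in NDD and 60.3, 57.6 and 45.9 CPM in WT. Both NDD libraries lay above WT, with a log2 ratio of 0.87 ± 0.20 (SE, unadjusted p 0.00432 and adjusted p 0.288 with edgeR). Hadh was at 243 and 337 CPM in NDD and 209.2, 198 and 135 CPM in WT, again with no overlap, and its log2 ratio was 0.68 ± 0.24 (SE, unadjusted p 0.0271 and adjusted p 0.437 with edgeR). Without NDD replicate 2 these log2 ratios were 0.62 and 0.44, and Hadh then no longer had an unadjusted p under 0.05, nor did it without WT replicate 3.

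Echs1, the short-chain enoyl-CoA hydratase, was at 79.2 and 114 CPM in NDD and 62.3 to 80.5 CPM in WT, with a log2 ratio of 0.41 ± 0.20 (SE, adjusted p 0.471 with edgeR). NDD replicate 1 lay inside the WT range by CPM, and the log2 ratio was 0.14 without NDD replicate 2. On the TPM scale the groups of Echs1 did not overlap (100.3 and 133 TPM in NDD, 79.0 to 97.8 TPM in WT). Hadha and Hadhb encode the alpha and beta subunits of the mitochondrial trifunctional protein, which handles long chains. They lie head to head on chromosome 5 in GENCODE M21 (GRCm38), Hadha at chr5:30118304-30155162 on the minus strand and Hadhb at chr5:30155248-30184593 on the plus strand. Hadha was at 272 and 302 CPM in NDD and 229 to 257 CPM in WT (log2 ratio 0.23 ± 0.12 SE), and Hadhb at 149.9 and 127.5 CPM in NDD and 125 to 133 CPM in WT (0.10, SE 0.12). On the TPM scale the subunits stood at like levels in WT, 109 ± 5.40 and 114 ± 5.52 TPM (SD, n = 3).

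**Figure D3:**
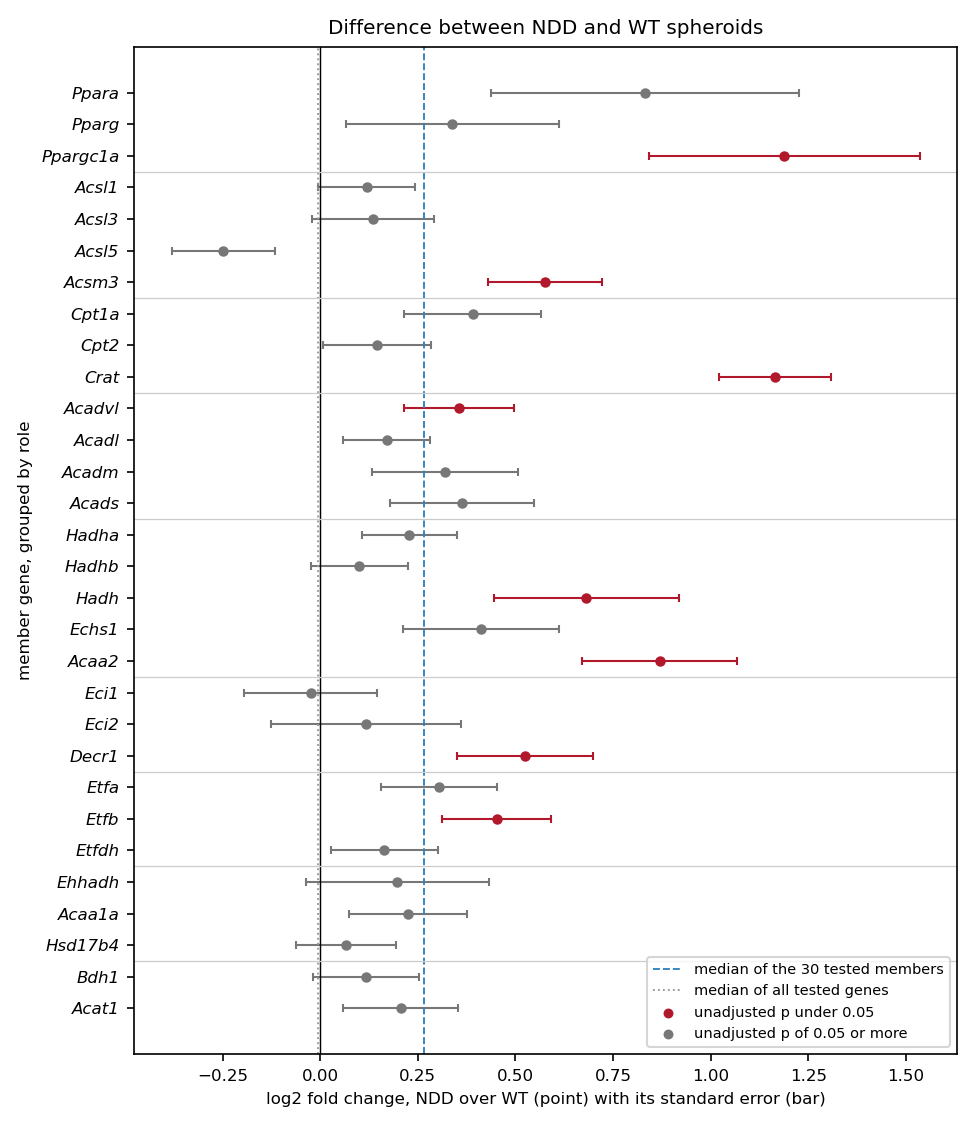
Log2 ratio of NDD over WT from edgeR (points, horizontal axis) with its standard error (bars) for the 30 tested members, grouped by role; red marks an unadjusted p under 0.05. Crat and Ppargc1a lie furthest to the right at 1.16 and 1.19, the dashed line is the median of the members at 0.27, and Acsl5 lies furthest to the left at -0.25.

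Of the 3 enzymes that prepare unsaturated fatty acids for the round, 1 had an unadjusted p under 0.05 with higher values in NDD (6.49% of all genes tested). Decr1, the mitochondrial 2,4-dienoyl-CoA reductase, was at 51.45 and 49.2 CPM in NDD and 41.5, 34.2 and 29.3 CPM in WT, with no overlap. Its log2 ratio was 0.52 ± 0.17 (SE, unadjusted p 0.0232 and adjusted p 0.4295 with edgeR). The enoyl-CoA isomerases Eci1 and Eci2 had log2 ratios of -0.025 and 0.12, and NDD replicate 1 lay below every WT library for both.

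Each of the 3 electron transfer proteins was higher by CPM in both NDD libraries than in every WT library (15.8% of all genes tested). Etfb was at 72.6 and 84.8 CPM in NDD and 57.5, 62.5 and 52.6 CPM in WT (log2 ratio 0.45 ± 0.14 SE, unadjusted p 0.0173 and adjusted p 0.412 with edgeR). Its partner Etfa was at 84.3 and 105 CPM in NDD and 69.8 to 81.8 CPM in WT, with a log2 ratio of 0.30 ± 0.15 (SE) that was 0.15 without NDD replicate 2. Etfdh, which passes the electrons on to ubiquinone, had a log2 ratio of 0.16 ± 0.14 (SE). Its NDD replicate 2 (66.8 CPM) lay just above WT replicate 1 (66.0 CPM). On the TPM scale the groups of Etfdh overlapped (56.2 and 47.9 TPM in NDD, 42.9 to 50.7 TPM in WT).

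The 3 peroxisomal members each had overlapping groups by CPM. The groups of Acaa1a did not overlap by TPM (44.8 and 49.4 TPM in NDD, 38.9 to 44.6 TPM in WT). Ehhadh, the peroxisomal bifunctional enzyme, was at 28.0 and 28.4 CPM in NDD and 17.5 to 28.4 CPM in WT, where WT replicate 3 alone was low. Log2 ratios were 0.20 for Ehhadh, 0.23 for the thiolase Acaa1a and 0.066 for Hsd17b4, the D-specific bifunctional protein. Acaa1a shares 20.4% of its 31-base sequences with Acaa1b, the largest such share of any member with another gene of the table, so its value is uncertain, although Acaa1b had at most 13 counts in any library.

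The ketone body enzymes in the list lay close together between the groups. Bdh1, which interconverts acetoacetate and beta-hydroxybutyrate, was at 195 and 177 CPM in NDD and 185, 178 and 152 CPM in WT, with overlap and a log2 ratio of 0.12 ± 0.14 (SE, adjusted p 0.690 with edgeR). Acat1, the mitochondrial acetoacetyl-CoA thiolase, was at 158 and 141 CPM in NDD and 139, 138 and 111 CPM in WT. Its lowest NDD value by CPM was just above its highest WT value, and the log2 ratio was 0.21 ± 0.15 (SE, adjusted p 0.545 with edgeR). On the TPM scale the groups of Acat1 overlapped (82.0 and 67.7 TPM in NDD, 57.7 to 71.0 TPM in WT).

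**Figure D4:**
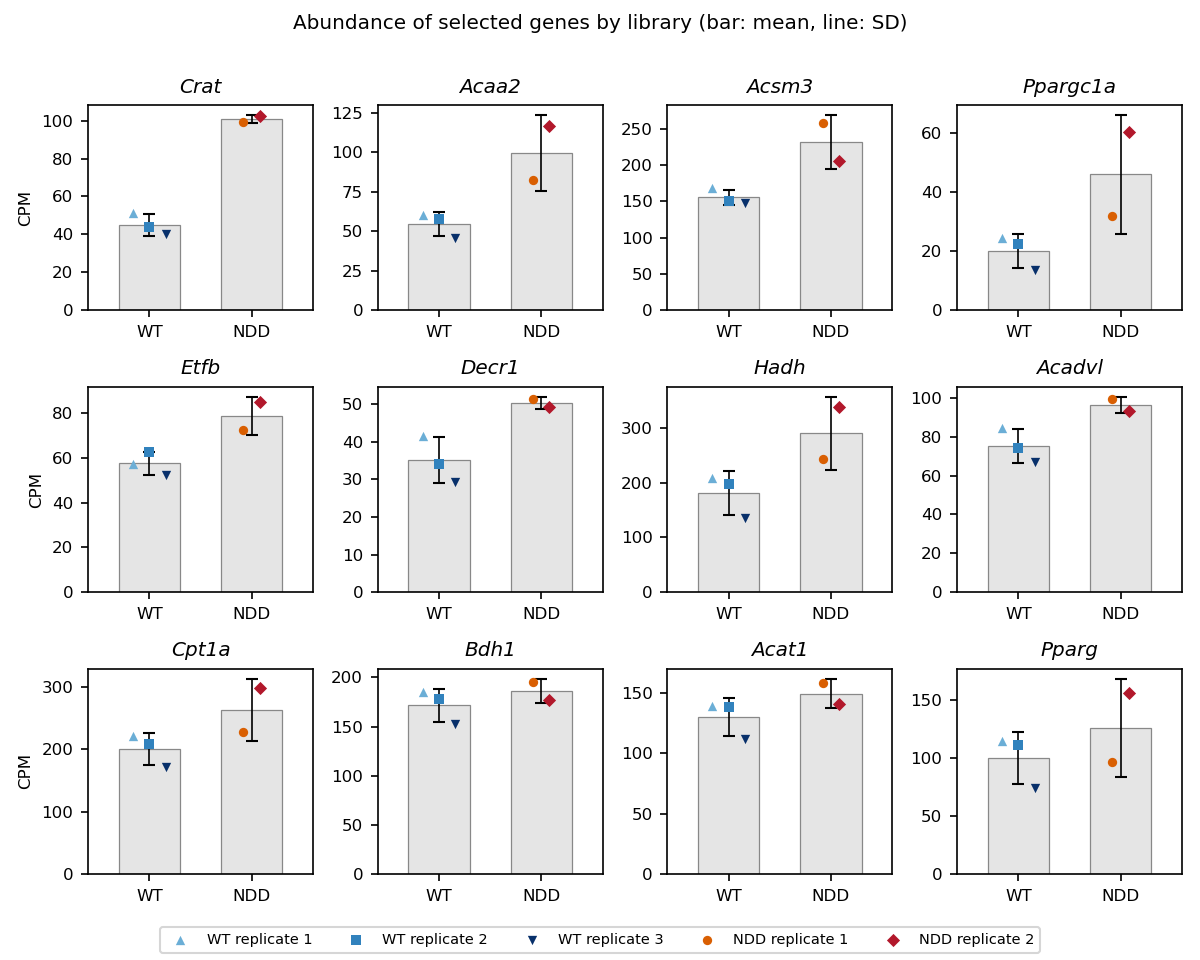
CPM (vertical axes, from 0) of 12 genes in WT and NDD; symbols are single libraries, bars are means and lines are SDs (n = 3 in WT, n = 2 in NDD). The 8 genes with an unadjusted p under 0.05 (upper panels) have every NDD library above every WT library, while those of Bdh1 and Pparg overlap WT.

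A list of 93 other genes of fatty acid oxidation, ketone bodies, fatty acid handling and their regulators was read beside the members, of which 78 were tested. Their median log2 ratio was 0.28, with 57 of 78 above 0 (49.5% of all genes tested). The median was 0.085 without NDD replicate 2, with 46 of 79 above 0. It was 0.45 without NDD replicate 1, with 58 of 80 above 0. EdgeR called 0 of the 78. It called 7 of 80 without NDD replicate 1 (8.75%, against 8.62% of all genes), and DESeq2 called 2 (2.56%, against 2.64%), both shares near those of all genes. An unadjusted p under 0.05 was found for 13 with higher values in NDD (16.7%, against 6.49% of all genes tested) and 3 with lower values (3.85%, against 4.68%). By CPM, every NDD value was above every WT value in 25 (32.1%, against 15.8% of all genes tested) and below in 9 (11.5%, against 16.2%). Per subgroup, the number with higher and lower values at that unadjusted threshold was 2 and 0 of 6 ketone body genes, 6 and 2 of 31 mitochondrial and fuel entry genes, 2 and 0 of 18 peroxisomal genes, 1 and 1 of 9 uptake and storage genes and 2 and 0 of 14 regulators.

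The wider gene with the smallest p was Acsl4, which prefers arachidonic acid. It was at 17.9 and 16.7 CPM in NDD and 32.04, 34.15 and 30.7 CPM in WT, well apart, with a log2 ratio of -0.90 ± 0.14 (SE, unadjusted p 0.000601 and adjusted p 0.132 with edgeR). Slc5a8, a sodium-coupled carrier of butyrate and other short-chain acids, was at 113 and 142 CPM in NDD and 57.05, 39.95 and 26.3 CPM in WT, with a log2 ratio of 1.63 ± 0.31 (SE, unadjusted p 0.00189 and adjusted p 0.207 with edgeR). These were the genes that DESeq2 called in the wider list.

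The remaining genes named by their p all had higher values in NDD, with no overlap between groups. Plin2, a lipid droplet coat protein, was at 89.4 and 97.6 CPM in NDD and 67.04, 72.8 and 57.0 CPM in WT. Hnf4g, a transcription factor, was at 24.04 and 25.99 CPM in NDD and 18.95, 17.1 and 18.4 CPM in WT. Both stood close together in the NDD libraries. Acot8, a peroxisomal thioesterase, was at 27.9 and 29.3 CPM in NDD and 18.2, 22.8 and 19.6 CPM in WT. Phyh, which starts the alpha-oxidation of phytanic acid, was at 43.02 and 63.8 CPM in NDD and 28.9, 34.2 and 16.9 CPM in WT, with NDD replicate 2 well above replicate 1. Plin2 had a log2 ratio of 0.51 ± 0.15 (SE) and Acot2, a mitochondrial acyl-CoA thioesterase, 1.37 (SE 0.40). The ratio was 0.46 (SE 0.14) for Hnf4g, 0.50 (SE 0.16) for Acot8 and 1.001 (SE 0.32) for Phyh. Acad10, an acyl-CoA dehydrogenase family member, had 1.09 (SE 0.38). Their edgeR adjusted p-values lay between 0.383 and 0.437. Acad10 was at 10.2 and 22.8 CPM in NDD and 8.904, 8.48 and 5.83 CPM in WT. Acot2 was at 6.12 and 14.7 CPM in NDD and 3.73, 4.75 and 3.603 CPM in WT. For both, NDD replicate 1 lay nearer to WT than to NDD replicate 2. Without NDD replicate 2 the log2 ratios were 0.42 for Acad10 and 0.62 for Acot2.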

How the data were processed

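The authors deposited estimated counts per gene as whole numbers and TPM (transcripts per 1000000, scaled for length). Per the submitters' processing notes, Bowtie2, RSEM and the build mm10 were used; versions, annotation and the role of each tool are not given in the sources used here. How reads that match several genes were shared out, and whether counting used strand, is likewise not given. Every value column matched 1 sample title.

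All 5 libraries entered 1 fit: edgeR 4.0.16 in R 4.3.3, quasi-likelihood test with robust prior, TMM factors, filterByExpr (13501 genes kept), no covariate, Benjamini-Hochberg adjustment over all genes tested, threshold 0.05. The standard error is the log2 ratio over the square root of F. CPM use TMM-scaled totals. Values of a gene are named in full for the 3 regulators, Cpt1a, Bdh1, Acat1 and Pdk4, and for the 10 members with the smallest p; of the wider list, for the 8 with the smallest p. Some results of the wider list are not reported here. Other members are given more briefly. The wider list and the markers, like the members, were chosen with earlier results of these data known.

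Alternatives were RLE factors, no filter, 10 counts in every library, DESeq2 1.42.0, limma 3.58.1 (voom, log2(TPM + 1), log2(TPM + 0.1)), a replicate block and leaving out each library. The code was tested on simulated counts. The limit given for a count of 0 covers counting error only. Shared 31-base sequences were counted in GENCODE M21 transcripts.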

Additional observations from a re-analysis of the deposited data

How the results depend on the processing

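With the settings of the report, 0 members were called. The count was 1 with no filter on low counts (Crat), 4 with DESeq2 and 0 under RLE factors, the stricter filter, limma-voom, the 3 limma fits on TPM and the replicate block (0.244% of all genes). With 1 library left out it ranged from 0 to 3, with 3 without NDD replicate 1 (Acaa2, Crat and Ppargc1a), where the lone NDD library is assumed to vary like WT and 8.62% of all genes were called. The count at an unadjusted p under 0.05, 8 members, was 5 with the replicate block (Acadvl, Decr1 and Etfb were lost), and ranged from 4 to 11 when a library was left out: 4 without WT replicate 3, 5 without NDD replicate 2 and 11 without NDD replicate 1. For the wider list, the count over both directions was 16, or 5 in the block fit, and ranged from 5 to 40 over single libraries left out. Of the 40 without NDD replicate 1, 32 had higher values in NDD (40.0%, against 13.1% of all genes) and 8 lower. Of the 6 without NDD replicate 2, 5 were higher (6.33%, against 3.72%). Of the 5 without WT replicate 3, 4 were higher (5.19%, against 3.08%), as were 4 of the 5 in the block fit (5.13%, against 3.64%).

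The median log2 ratio over the members, 0.27, ranged from 0.19 with the replicate block or without WT replicate 3 to 0.35 without NDD replicate 1. With 1 library left out, 5 members turned sign. Without NDD replicate 2, Pparg was at -0.036 (up to 0.64 without NDD replicate 1), Eci2 at -0.24 and Hsd17b4 at -0.043. Without NDD replicate 1, Hadhb was at -0.029 and Eci1, negative with all libraries, at 0.14. Small log2 ratios also shrank by over 1.5 times: without WT replicate 3, Cpt2 was at 0.055, Acads at 0.21, Etfdh at 0.083, Ehhadh at 0.0022, Bdh1 at 0.038 and Acat1 at 0.11, and without NDD replicate 2, Acsl3 was at 0.0012 and Acaa1a at 0.11. The cause was not tested.

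Replicate numbers are shared by the groups, but the labels do not tie them to an animal, litter or day. After subtracting group means, the replicate 1 libraries correlated at -0.009 and the replicate 2 libraries at 0.353 over genes. With 2 NDD libraries, their deviations from the group mean are mirror images, so these correlations cannot show whether the libraries were paired. As the labels give no pairing, the libraries were analysed as unpaired, and the replicate block is given as an alternative. With 2 libraries against 3, the spread rests on few libraries. Pdk4 was too low for the test.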

Other observations

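Other kinases that regulate pyruvate dehydrogenase were expressed where Pdk4 was at most 0.259 CPM. Pdk1 was at 55.8 and 217 CPM in NDD replicates 1 and 2 and at 110.5, 153 and 71.9 CPM in WT replicates 1, 2 and 3, so the NDD libraries lay on either side of WT. Pdk2 was at 47.8 and 101 CPM in NDD and at 45.2, 43.55 and 25.7 CPM in WT, with a log2 ratio of 0.96 ± 0.37 (SE, adjusted p 0.437 with edgeR) that was 0.34 without NDD replicate 2. Pdk3 was at 39.4 and 24.1 CPM in NDD and at 34.0 to 34.7 CPM in WT, with NDD replicate 2 the lowest library. The 3 were picked with their values in view.

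Acaca, the acetyl-CoA carboxylase of fatty acid synthesis, had the opposite order to most of the oxidation genes. It was at 107 and 108 CPM in NDD and at 140, 127 and 138.5 CPM in WT, with a log2 ratio of -0.33 ± 0.11 (SE, adjusted p 0.437 with edgeR), and was likewise picked with its values in view.

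Several genes of fatty acid metabolism had few or no counts in these spheroids. Of the 93 wider genes, 8 had a count of 0 in all 5 libraries, among them Fabp1 and Bdh2. Whether their RNA was absent or the gene rows missed it was not tested. Cd36 had at most 1 count in any library. Fabp2, the intestinal fatty acid binding protein, was at 15.65 and 13.2 CPM in NDD and at 12.5, 2.86 and 1.97 CPM in WT, with WT replicate 1 near the NDD libraries.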
